A study of Mus musculus with 21 samples.

Results

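The 10 genes described here act in glutathione and thioredoxin chemistry and in the iron-driven lipid oxidation of membranes. They are Slc7a11, Gclc, Gclm, Gpx4, Acsl4, Aifm2, Txnrd1, Prdx1, Srxn1 and Nqo1, taken by gene symbol from 23158 genes measured in any of 3 tables of mouse RNA sequencing. All are counted with the defence against this oxidation except Acsl4, which supplies lipids that oxidise. In the table of cytokine-treated eosinophils the row of Gpx4 carried no symbol and was found by its Ensembl identifier. All 10 genes passed the filter on low counts in every comparison. Across the 21 libraries all cells were from wild-type (WT) mice, and the sources used here give no strain, sex or age. The first table held 3 libraries of eosinophils given IL-4 and GM-CSF (called T2 by their titles), and whose labels differ in a further cytokine, IL33 for replicate 1, IL34 for replicate 2 and IL35 for replicate 3, and 3 libraries of untreated eosinophils, called resting here. The second table held bone marrow-derived eosinophils, grown in culture from bone marrow: 4 libraries of cells given ferric ammonium citrate (FAC) at 10 µM to supply iron, 3 of cells given deferoxamine (DFO) at 5 µM to bind it, and 2 of untreated cells (CON). These cultures had SCF and FLT3 ligand at 100 ng/mL each for 4 days and then IL-5 at 10 ng/mL, with FAC or DFO added on day 4 and RNA taken on day 7. The culture medium contained β-mercaptoethanol, a thiol known to help cultured cells take up cystine by routes other than the Slc7a11 antiporter. The last table held 3 libraries of bone marrow eosinophils (Eos) and 3 of bone marrow granulocyte-macrophage progenitors (GMPs), both untreated. The labels attach the culture protocol to every sample, so how the T2, resting, Eos and GMP cells were obtained is not given in the sources used here.

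Iron in its ferrous form splits peroxides into radicals that attack polyunsaturated lipids, and a cell whose membranes are overrun in this way dies by ferroptosis. Cells hold the process back along several arms: cystine is imported and made into glutathione, glutathione peroxidase 4 uses it to reduce lipid peroxides, the thioredoxin and peroxiredoxin system removes hydrogen peroxide, and reduced quinones trap radicals in the membrane. Many of these genes are targets of the transcription factor NRF2, which binds antioxidant response elements, and some also of ATF4, which binds amino acid response elements when cysteine or other amino acids run short.

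Total counts per library ran from 16073573 to 18995878 in the T2 table, from 16809773 to 17991870 in the table of cultured eosinophils and from 25857361 to 28992674 in the Eos and GMP table. Levels are given in CPM, a gene's share of its library's counts after scaling within each table, so levels in different tables were never tested against each other. In edgeR's quasi-likelihood test a gene was called at a Benjamini-Hochberg adjusted p under 0.05 over all genes tested. Nothing in the labels says that replicates were separate animals or cultures, and the p-values measure only the spread between these libraries. A pair of libraries stood apart from their groups. FAC replicate 6 lay at 54.37 on the first principal component, against 18.67 to 28.23 in the other FAC libraries, and Eos replicate 3 at -201.04, against -39.38 and -32.05 in the other Eos libraries. In both, genes with short transcripts were high and genes with long transcripts low: the median ratio to the rest of the group was 1.25 in FAC replicate 6 for genes under 1 kb and 0.758 for genes over 4 kb, and in Eos replicate 3 it was 1.26 and 0.79. Results are therefore given with and without these libraries. The eosinophil labels were also set beside 9 defining genes, among them Prg2, Epx and Il5ra, none of which was at 0 in any group, GMPs included. Their summed level was 5558 to 5727 CPM in T2 and 5679 to 6055 CPM in resting eosinophils, 56844 to 69070.3 CPM in FAC, 18338 to 21705 CPM in DFO and 41901 to 42842 CPM in CON, and 19029.6 to 35678 CPM in Eos against 90.7 to 251.7 CPM in GMPs. The Eos libraries also held neutrophil markers at 33255 to 198068 CPM and progenitor markers at 36596 to 62260.4 CPM. The lowest progenitor sum in Eos was above the highest eosinophil sum in Eos, 35678 CPM. Genes of the cell cycle summed to 2519 to 2850 CPM in Eos and 2820 to 3022 CPM in GMPs. By these markers the Eos libraries were mixed, and Eos is used here as the name in the labels. The share of eosinophils in them was not tested.

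Treatment with T2 cytokines raised 9 of the 10 genes and lowered the remaining one, Gpx4. In this comparison 76.1% of all genes tested were called, 38.2% higher and 37.9% lower, so the calls themselves are common. The median log2 fold change was 1.58 over the 10 genes and -0.01 over all genes. For each of the 10 genes no T2 library lay within the range of the resting libraries, and 77.7% of all genes separated in this way. Every one of the 10 calls was also made with each library left out in turn. The T2 libraries were fitted as a single group although their labels name different further cytokines. Their SEs and p-values therefore include any difference between those treatments, which was not tested. In bulk RNA such as this, a change in the share of cells that express a gene and a change in RNA per cell cannot be told apart.

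The cystine importer moved most. Slc7a11, the transport subunit of the cystine and glutamate antiporter, lies on chromosome 3 (49892526 to 50443614, minus strand, GRCm38). It measured 1637.1, 1631 and 1288.4 CPM in T2 replicates 1, 2 and 3, against 54.4, 48.7 and 51.0 CPM in resting replicates 1, 2 and 3. All T2 libraries were far above all resting ones, and T2 replicate 3 was the lowest of its group. The rise was 29.6-fold (log2 fold change 4.89, SE 0.0876, adjusted p 1.18e-16), which ranked 64th from the top of 11345 genes. Slc3a2, the chain that anchors the antiporter in the membrane, was at 563.4 to 583.7 CPM in T2 and 152.3 to 161.9 CPM in resting eosinophils, a rise of 1.87 on the log2 scale (SE 0.0431, adjusted p 1.92e-15). It was singled out after its values were seen.

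Both subunits of glutamate-cysteine ligase, the enzyme of the limiting step of glutathione synthesis, rose as well. Gclc, the catalytic subunit (chromosome 9, 77754535 to 77794485), had 104.0, 96.9 and 98.4 CPM in T2 replicates 1 to 3, against 23.5, 24.4 and 25.4 CPM in the resting replicates. Gclm, the modifier subunit (chromosome 3, 122245557 to 122270732), had 243.0, 225.0 and 228.8 CPM in T2, against 68.6, 66.1 and 63.9 CPM at rest. The spread within each group was small beside the gap between them. Gclc was 4.08-fold higher (log2 fold change 2.03, SE 0.059, adjusted p 3.31e-14) and Gclm 3.51-fold higher (1.81, SE 0.0511, adjusted p 2.24e-14).

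Among the genes of the lipid arm, Gpx4 went the other way from the rest. Gpx4, the selenoenzyme that reduces peroxidised phospholipids with glutathione (chromosome 10, 80047166 to 80056439), was at 132.5, 140.9 and 152.0 CPM in T2 replicates 1 to 3, against 280.8, 265.5 and 252.8 CPM in the resting replicates. Its T2 level was 0.532 of the resting level (log2 fold change -0.91, SE 0.0558, adjusted p 4.03e-10). Acsl4, which loads arachidonic and adrenic acid onto coenzyme A and so supplies the lipids that oxidise in ferroptosis (chromosome X, 142317993 to 142390535), had 601.6, 610.6 and 513.4 CPM in T2, against 226.3, 218.3 and 233.3 CPM at rest. Acsl4 rose 2.55-fold (1.35, SE 0.0591, adjusted p 5.56e-12). Aifm2, also known as FSP1, which reduces coenzyme Q at the membrane without glutathione (chromosome 10, 61715263 to 61739260), had 28.8, 30.7 and 29.9 CPM in T2, against 15.8, 13.3 and 16.7 CPM at rest. Aifm2 rose 1.96-fold (0.97, SE 0.0855, adjusted p 3.74e-08). Aifm2 overlaps the protein-coding gene H2afy2 on the opposite strand, and Gpx4 has a pseudogene, Gpx4-ps2. The strand setting of the libraries is not given in the sources used here, so reads of such pairs may be shared.

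Of the 3 genes of the thioredoxin arm among the 10, all rose, Txnrd1 and Srxn1 by more than Prdx1. Txnrd1, the selenoenzyme that passes electrons from NADPH to thioredoxin (chromosome 10, 82833951 to 82897712), had 606.7, 609.9 and 578.1 CPM in T2 replicates 1 to 3, against 80.3, 77.6 and 78.7 CPM in the resting replicates. Srxn1, sulfiredoxin, which repairs over-oxidised peroxiredoxins (chromosome 2, 152105516 to 152111376), had 295.4, 281.7 and 278.6 CPM in T2, against 33.1, 35.9 and 36.3 CPM at rest. Prdx1, a cytosolic peroxiredoxin that removes hydrogen peroxide (chromosome 4, 116685544 to 116700822), had 115.5, 114.1 and 127.2 CPM in T2, against 51.5, 50.0 and 49.8 CPM at rest. The rises were 7.59-fold for Txnrd1 (log2 fold change 2.92, SE 0.0454, adjusted p 2.38e-17), 8.13-fold for Srxn1 (3.02, SE 0.0542, adjusted p 1.18e-16) and 2.36-fold for Prdx1 (1.24, SE 0.057, adjusted p 1.04e-11). Nqo1, a cytosolic quinone reductase long used as a marker of NRF2 activity (chromosome 8, 107388225 to 107403206), rose least, with 60.3, 49.9 and 63.4 CPM in T2 and 42.6, 42.3 and 44.8 CPM at rest (1.34-fold, log2 fold change 0.42, SE 0.0769, adjusted p 0.000122). Txnrd1 shares its locus with the protein-coding gene Eid3 on the same strand. Slc7a11 overlaps the processed pseudogene Gm37692 and Gclm the transcribed processed pseudogene Gm6061, each on the same strand, besides other annotated loci. Reads may be shared there too.

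**Figure D1:**
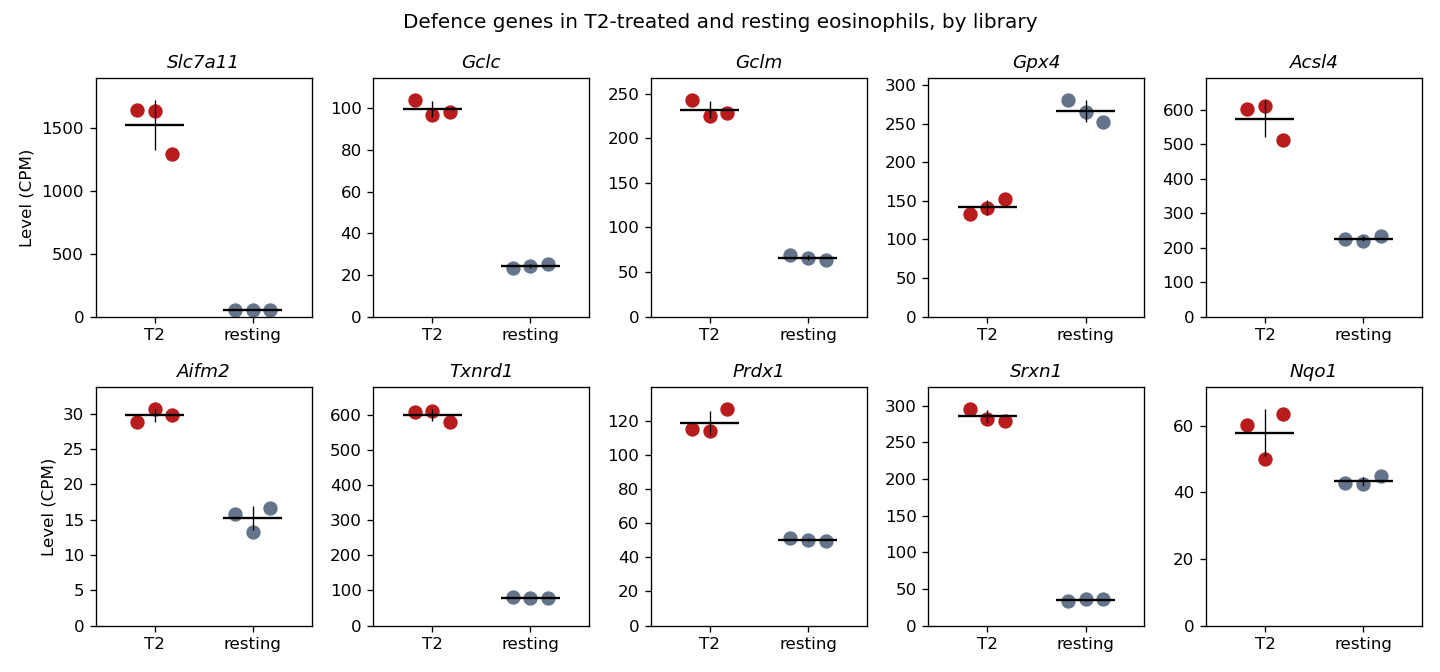
Level of each of the 10 genes in CPM (linear axis from 0, one scale per panel) in the 3 T2 libraries and the 3 resting libraries; points are libraries, horizontal bars means and vertical bars 1 SD. T2 libraries lie above resting libraries for every gene except Gpx4, where they lie below.

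The rest of the pathway did not share this pattern throughout. Over all genes tested 38.2% were called higher and 37.9% lower. Of 16 tested genes of glutathione use and synthesis other than the 10, 6 rose and 8 fell with T2 cytokines (median log2 fold change -0.34). The 3 largest changes among them were a rise of Glrx, glutaredoxin (log2 fold change 2.95, SE 0.0533), and falls of the glutathione transferases Mgst2 (log2 fold change -2.83, SE 0.334) and Gsto1 (-2.77, SE 0.0683). Of 13 genes of the thioredoxin system 7 rose and 5 fell (median 0.19), and the largest changes were falls, of the methionine sulfoxide reductase Msrb1 (-1.70), of Sesn1 (-1.42) and of the peroxiredoxin Prdx2 (-1.39). Of 19 further NRF2 genes 13 rose and 5 fell (median 0.61), led by Hmox1, heme oxygenase 1 (4.93), Abcc1, an exporter of glutathione conjugates (3.06), and the NRF2 partner Mafg (1.83). Of 21 further genes of ferroptosis lipids 13 rose and 5 fell (median 0.25), with the lipoxygenase Alox15 lower (-1.90), Gch1, the first enzyme of tetrahydrobiopterin synthesis, higher (1.58), and Sat1, a polyamine acetyltransferase, lower (-0.93). Upper-quartile scaling moved the median of all genes to -0.13, and dropping the filter moved it to -0.14. With upper-quartile scaling 3690 genes were called higher and 4927 lower, against 4329 higher and 4303 lower with the main scaling. None of the 10 genes lost its call or changed sign under either. Other marker lists moved beside these genes. Of the 9 eosinophil markers 2 rose and 6 fell. Neutrophil markers summed to 1273.5 to 1330.6 CPM in T2 and 2481 to 2705 CPM in resting libraries with 2 of 11 genes higher and 6 lower. Macrophage markers summed to 880.7 to 921.3 CPM in T2 and 566.6 to 601.6 CPM at rest, with Cd5l and Marco at 0 in T2 and Marco at 0 at rest. Of 6 tested genes 3 were higher, Mrc1 (2.58), Csf1r (0.61) and Vcam1 (0.33). C1qa (0.83), C1qb (0.25) and C1qc (-0.62) were not called. Markers of mast cells and basophils summed to 2.80 to 3.44 CPM in T2 and 7.58 to 9.04 CPM at rest, with Tpsb2 at 0 in both and Mcpt4 at 0 in T2. The part of such cells in the result was not tested.

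Because most of the 10 genes, though not Gpx4, rose with T2 cytokines, the promoters of the 10 were searched. The windows ran from 250 bases before to 50 bases after each RefSeq start (GRCm38.p6). The search was for a core antioxidant response element, TGACNNNGC, and an amino acid response element, TGATGNAA, on both strands. Of the 10 genes 9 had a window and Gclc had none. The first motif was found in 4 of these 9 genes and in 14.0% of all genes with a window, and the second in 1 of the 9 and in 4.51% of all genes. Shown here are the stretches before the start that hold a match, on the strand of the gene, with the matched letters in capitals. They lie at chr3:50443614-50443719 on the minus strand for Slc7a11, chr3:122245383-122245471 on the plus strand for Gclm, chr10:82859074-82859162 on the plus strand for Txnrd1 (1 of its 3 RefSeq starts) and chr4:116685426-116685514 on the plus strand for Prdx1.
Slc7a11: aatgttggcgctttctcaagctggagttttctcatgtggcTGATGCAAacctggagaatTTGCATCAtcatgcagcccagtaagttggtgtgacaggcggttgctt
Gclm: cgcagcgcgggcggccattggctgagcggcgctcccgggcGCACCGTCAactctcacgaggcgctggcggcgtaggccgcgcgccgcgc
Txnrd1: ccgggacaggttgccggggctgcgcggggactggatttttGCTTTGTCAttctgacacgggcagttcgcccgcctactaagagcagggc
Prdx1: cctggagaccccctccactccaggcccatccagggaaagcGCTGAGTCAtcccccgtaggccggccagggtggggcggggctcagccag
Slc7a11 held 2 matches of the amino acid response element, facing each other, and none of the antioxidant element in this window. The Gclm, Txnrd1 and Prdx1 stretches each hold 1 antioxidant element, read on the opposite strand. Srxn1 had its match 28 bases after the start. A match describes the letters in a window and does not show that a factor binds there.

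In cultured eosinophils the question was how iron supply changes the same genes. Slc7a11 and Nqo1 rose with added iron against both other arms, Srxn1 did so too, and with all libraries Slc7a11 was the one gene of the 10 that fell with the chelator. By edgeR's quasi-likelihood test with Benjamini-Hochberg adjustment, 3 of the 10 genes were called higher in FAC than in CON, against 6.04% of all genes called (1.76% higher, 4.28% lower), 5 higher and 1 lower in FAC than in DFO, against 48.2% of all genes (23.5% higher, 24.8% lower), and 1 lower in DFO than in CON, against 11.6% of all genes (6.46% higher, 5.12% lower). Libraries did not overlap for 5 of the 10 genes in FAC against CON (36.1% of all genes), for 7 in FAC against DFO (55.7%) and for 8 in DFO against CON (65.7%). Without FAC replicate 6 the counts were 6 higher in FAC than in CON (21.7% of all genes called), 8 higher and 1 lower in FAC than in DFO (62.5%) and 4 lower in DFO than in CON (39%). These 3 comparisons share libraries and the spread estimated in 1 fit, so their values are not independent of each other. The median log2 fold change of the 10 genes was 0.41 in FAC against CON, 0.51 in FAC against DFO and -0.09 in DFO against CON, where that of all genes was -0.02, -0.01 and 0.

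Slc7a11 showed the widest iron range of the group. It measured 246.3, 211.3, 312.1 and 254.2 CPM in FAC replicates 5, 6, 7 and 8, 90.8, 91.5 and 84.1 CPM in DFO replicates 9, 11 and 12, and 165.8 and 162.6 CPM in CON. No library of one arm fell inside another arm, and the order was DFO, CON, FAC. It was 2.88-fold higher in FAC than in DFO (log2 fold change 1.53, SE 0.121, adjusted p 1.52e-05), 1.56-fold higher in FAC than in CON (0.64, SE 0.135, adjusted p 0.0271), and its level in DFO was 0.541 of that in CON (-0.89, SE 0.137, adjusted p 0.0047). The call against CON was the least firm. It was lost without either CON library (adjusted p 0.217 without replicate 1 and 0.213 without replicate 2), without DFO replicates 9, 11 or 12 (0.0566, 0.0559 and 0.0526) and without FAC replicates 5 or 8 (0.0509 and 0.0657), with a log2 fold change of 0.63 to 0.67 in all of these, and the adjusted p was 1.88e-05 without FAC replicate 6. The DFO call was lost without CON replicate 2 (adjusted p 0.052, log2 fold change -0.90).

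The ligase subunits parted. Gclm had 93.5, 74.1, 101.1 and 88.7 CPM in FAC replicates 5, 6, 7 and 8, against 69.3, 72.8 and 68.2 CPM in DFO replicates 9, 11 and 12 and 66.3 and 71.0 CPM in CON. Every FAC library was above every DFO and CON library, FAC replicate 6 by the least. Gclm was called higher in FAC than in DFO (0.35, SE 0.101, adjusted p 0.018), a call lost without DFO replicate 12 (0.0691) or 9 (0.0617) and with length and GC offsets (log2 fold change 0.23, adjusted p 0.193). Against CON it was not called with all libraries (0.38, SE 0.115, adjusted p 0.0898) and was called without FAC replicate 6 (0.47, SE 0.0633, adjusted p 0.000101). Gclc had 49.2, 38.9, 61.1 and 52.1 CPM in FAC, 55.4, 58.5 and 57.6 CPM in DFO and 48.1 and 53.8 CPM in CON, with overlapping ranges in FAC and both other arms. No Gclc difference was called with all libraries or without FAC replicate 6.

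In the lipid arm, Gpx4 and Acsl4 were not called in any of the 3 comparisons with all libraries. Gpx4 had 245.9, 461.4, 196.3 and 241.0 CPM in FAC replicates 5, 6, 7 and 8, against 203.9, 195.2 and 197.8 CPM in DFO replicates 9, 11 and 12 and 206.1 and 210.6 CPM in CON. FAC replicate 6 stood alone at 2.03 times the mean of the other FAC libraries, and FAC replicate 7 lay within the DFO range. The log2 fold change against DFO was 0.52 (SE 0.249, adjusted p 0.108) with it and 0.21 (SE 0.0693, adjusted p 0.0154) without it, so the call came with a smaller difference and a smaller spread. Without FAC replicate 7 it was 0.70 (adjusted p 0.031). Acsl4 had 115.7, 97.3, 135.5 and 122.5 CPM in FAC, 105.3, 108.5 and 99.3 CPM in DFO and 125.4 and 116.2 CPM in CON. Without FAC replicate 6 Acsl4 was called higher in FAC than in DFO (0.27, SE 0.0595, adjusted p 0.00105) and lower in DFO than in CON (-0.22, SE 0.0663, adjusted p 0.0174). Aifm2 was the one gene called lower with iron than with the chelator. It had 16.1, 19.1, 17.5 and 18.4 CPM in FAC, against 20.5, 21.5 and 20.9 CPM in DFO and 18.8 and 19.2 CPM in CON (FAC against DFO -0.24, SE 0.0783, adjusted p 0.0307). This call was lost without any 1 of the CON libraries (adjusted p 0.0505 for each), of the DFO libraries (0.0664 to 0.101, highest without replicate 11) or of FAC replicates 5 (0.112) and 7 (0.0782), and was 0.00595 without FAC replicate 6.

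Srxn1 and Nqo1 were highest in the FAC libraries. Srxn1 had 76.1, 75.8, 74.6 and 73.4 CPM in FAC replicates 5, 6, 7 and 8, against 50.7, 47.2 and 46.9 CPM in DFO replicates 9, 11 and 12 and 50.1 and 54.2 CPM in CON. Nqo1 had 27.8, 26.5, 29.5 and 29 CPM in FAC, against 12.2, 10.5 and 12.5 CPM in DFO and 13.7 and 14.2 CPM in CON. For both genes every FAC library, replicate 6 included, stood above all DFO and CON libraries. Nqo1 was 2.02-fold higher in FAC than in CON (log2 fold change 1.02, SE 0.0979, adjusted p 0.0011) and 2.40-fold higher than in DFO (1.26, SE 0.086, adjusted p 6.96e-06), calls kept with each library left out. In DFO against CON Nqo1 was not called with all libraries (-0.25, SE 0.103, adjusted p 0.164). It was called lower there without FAC replicate 6 (-0.25, SE 0.0947, adjusted p 0.0461). Srxn1 was 1.44-fold higher in FAC than in CON (0.52, SE 0.0717, adjusted p 0.00443), a call lost without CON replicate 1 (0.47, adjusted p 0.0938), and 1.55-fold higher than in DFO (0.64, SE 0.0628, adjusted p 5.33e-05).

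Txnrd1 had 199.8, 147.8, 199.0 and 187.6 CPM in FAC replicates 5, 6, 7 and 8, against 129.0, 132.6 and 127.2 CPM in DFO replicates 9, 11 and 12 and 159.3 and 156.8 CPM in CON. FAC replicate 6 was below both CON libraries and the other FAC libraries were above them. Txnrd1 was called higher in FAC than in DFO (0.50, SE 0.103, adjusted p 0.00364), and not in FAC against CON (0.22, SE 0.116, adjusted p 0.292) or in DFO against CON (-0.29, SE 0.121, adjusted p 0.169). Without FAC replicate 6 both were called, at 0.32 (SE 0.05, adjusted p 0.000365) and -0.29 (SE 0.0501, adjusted p 0.000337). Prdx1 had 278.6, 487.9, 248.7 and 285.1 CPM in FAC, against 225.5, 232.2 and 227.4 CPM in DFO and 242.0 and 234.9 CPM in CON. Its libraries were in the order DFO, CON, FAC without overlap, but with FAC replicate 6 far above the rest it was not called against DFO (0.51, SE 0.205, adjusted p 0.0648) or CON (0.45, SE 0.234, adjusted p 0.281). Without that library the differences were smaller and called, 0.26 (SE 0.0533, adjusted p 0.000554) against DFO and 0.19 (SE 0.0598, adjusted p 0.031) against CON, and without FAC replicate 7 Prdx1 was called against DFO (0.65, adjusted p 0.0238).

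In CPM, Slc7a11, Nqo1 and Prdx1 were thus the 3 genes whose libraries lay in the full order DFO, CON, FAC, which 11.5% of all genes did. Without FAC replicate 6 Txnrd1 joined them (14.2% of all genes), and Aifm2 lay in the reverse order (15.7% of all genes). In the deposited TPM, which carry no TMM scaling, Nqo1 alone of the 3 kept this order. Slc7a11 in FAC replicate 6 was at 26.8 TPM, below CON at 28.5 and 28.7 TPM. Srxn1 in that library, at 32.9 TPM, lay between the CON libraries (30.5 and 33.4 TPM), and Gclm, at 45.5 TPM, below all of DFO and CON. Prdx1 overlapped across the arms, and Aifm2 lay in the reverse order with all libraries.

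**Figure D2:**
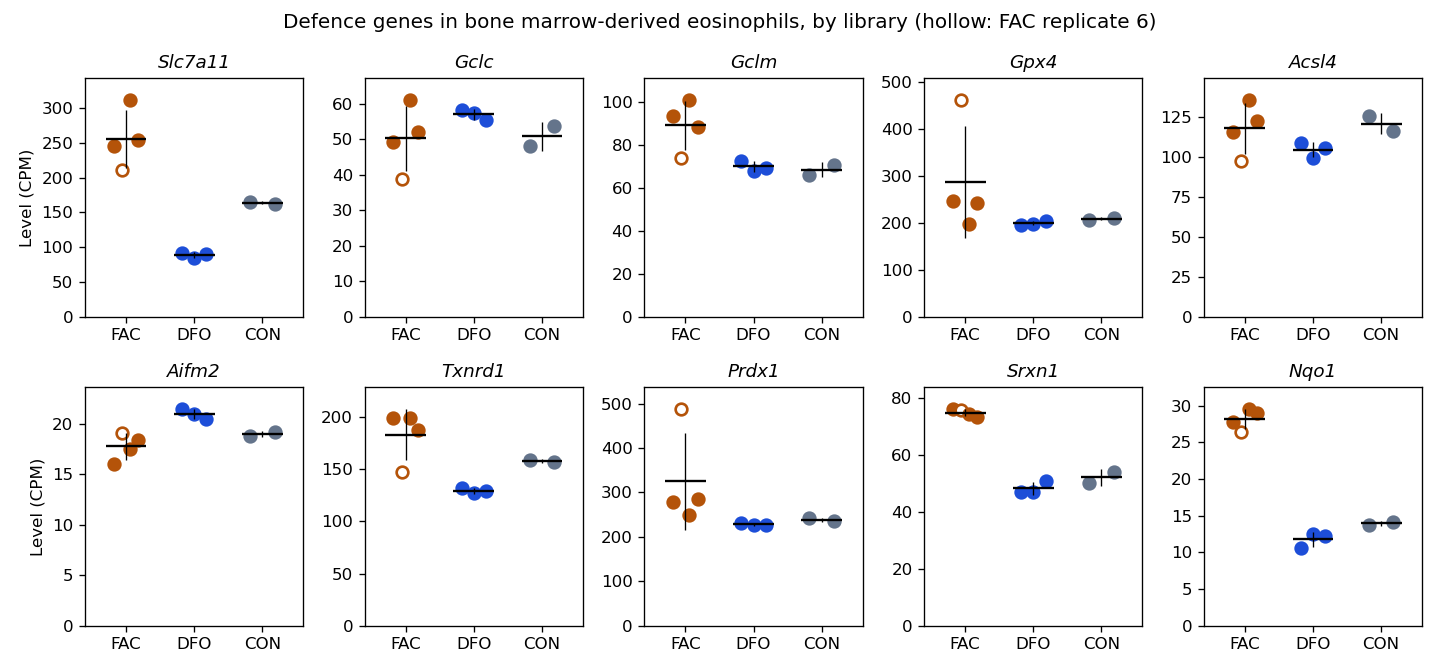
Level of each gene in CPM (linear axis from 0, one scale per panel) in cultured eosinophils with FAC, with DFO and in CON; points are libraries, the hollow point is FAC replicate 6, horizontal bars are means of all libraries and vertical bars 1 SD. Slc7a11, Nqo1, Srxn1, Gclm and Prdx1 have every FAC library above both other arms, and Gpx4 overlaps them. Gpx4 and Prdx1 have 1 high FAC library, at 461.4 and 487.9 CPM.

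**Figure D3:**
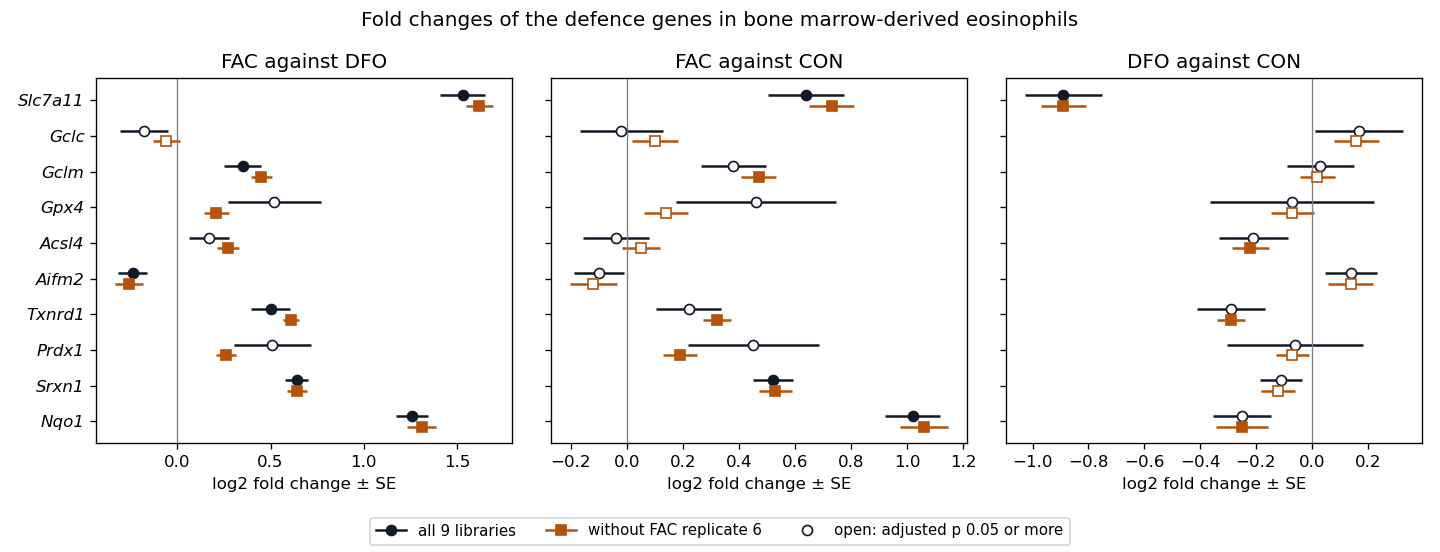
Log2 fold change with its SE for each gene in FAC against DFO, FAC against CON and DFO against CON, with all 9 libraries (circles) and without FAC replicate 6 (squares); filled symbols have an adjusted p under 0.05 in edgeR's quasi-likelihood test. Leaving the library out narrows the SE of most genes and moves Gpx4 and Prdx1 towards 0 in the comparisons with FAC.

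Further genes of the pathway were called in each comparison. Over all genes tested 1.76% were called higher and 4.28% lower in FAC than in CON. The shares were 23.5% and 24.8% in FAC against DFO, and 6.46% and 5.12% in DFO against CON. Without FAC replicate 6 the calls, of 12560 genes, were 1254 higher and 1474 lower in FAC against CON. They were 4003 and 3852 in FAC against DFO, and 2368 and 2531 in DFO against CON. In FAC against CON, 3 of 19 glutathione genes rose, Chac1, which breaks glutathione down (0.65, adjusted p 0.0483), Slc3a2 (0.47, adjusted p 0.0164) and the glutathione reductase Gsr (0.36, adjusted p 0.0199). Without FAC replicate 6, 6 rose and 2 fell. In FAC against DFO 9 glutathione genes rose and 3 fell (10 and 3 without FAC replicate 6), led by Cth, which makes cysteine from cystathionine, with a median of 1.33 CPM in FAC and 0.28 CPM in DFO (2.22, SE 0.471, adjusted p 0.00441), Gstp1 (1.06) and Ggct (0.84). In DFO against CON 1 fell, Gsr (-0.28, adjusted p 0.0333). Of 13 thioredoxin genes 1 rose and 1 fell in FAC against DFO, the mitochondrial peroxiredoxin Prdx3 (0.30) and Txnip, which binds thioredoxin (-0.31), and Txnip was also the one called higher in DFO than in CON (0.31, adjusted p 0.0336). In FAC against CON 0 of the 13 were called by edgeR with all libraries, 0 had an unadjusted p under 0.05 and 0 were called by DESeq2, and 3 rose without FAC replicate 6. Of 20 further NRF2 genes 3 rose in FAC against CON, Hmox1 (0.56, adjusted p 0.0485), G6pdx (0.39, adjusted p 0.0146) and Cat, catalase (0.36, adjusted p 0.0329), with 9 higher and 1 lower without FAC replicate 6. Against DFO 9 of them rose and 3 fell, led by Me1 (1.79) and Taldo1 (0.65), with the NRF2 competitor Bach1 lower (-0.69). In DFO against CON 1 fell, the transketolase gene Tkt (-0.31, adjusted p 0.0405). Of 21 genes of ferroptosis lipids 8 fell and 1 rose in DFO against CON (10 fell and 2 rose without FAC replicate 6), among them Mboat2 (-1.27), Scd1 (-1.24) and Alox15 (-1.13), which remodel, desaturate or oxidise lipids. In FAC against DFO 13 rose and 1 fell, with Alox15 (1.79), Scd1 (1.61) and Mboat2 (1.35) in the lead, and in FAC against CON 3 rose, Alox15 (0.67), Lpcat3 (0.54) and Mboat1 (0.54).

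Markers of cell types moved with iron in the same libraries. Neutrophil markers summed to 6473 to 9324 CPM in FAC, 16839 to 18909.9 CPM in DFO and 9188 to 10997 CPM in CON, with 11 of 11 genes lower in FAC than in DFO. Progenitor markers summed to 746.5 to 839.4 CPM in FAC, 1576 to 1665 CPM in DFO and 1049 to 1062 CPM in CON, with 8 of 8 lower in FAC than in DFO, and the 5 markers of plasmacytoid dendritic cells to 164.1 to 223.3 CPM in FAC, 686.1 to 714.6 CPM in DFO and 351.0 to 369.3 CPM in CON. The 9 eosinophil markers, whose sums are given above, were all higher in FAC than in DFO and all lower in DFO than in CON, and 8 of 9 genes of the cell cycle were higher in FAC than in DFO. Markers of mast cells and basophils summed to 3303 to 4320.2 CPM in FAC, 4480.1 to 5222 CPM in DFO and 3347 to 3992 CPM in CON, with Mcpt4 at 0 in CON. No marker of the other lists named here was at 0 in any arm. The part of these shifts in the changes of Slc7a11, Nqo1, Srxn1 and the others was not tested.

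In the libraries that stood apart, the shifts of the 10 genes went in part with transcript length. In FAC replicate 6 the short Gpx4 and Prdx1 transcripts (959 and 661 nt) were at 2.03 and 1.80 times the mean of the other FAC libraries, whereas Slc7a11 (5821 nt), Acsl4 (5048 nt), Gclc (3423 nt) and Txnrd1 (3325 nt) were at 0.719 to 0.781 times. Gclm (1002 nt) at 0.785 times and Srxn1 (2812 nt) at 1.02 times broke the pattern. Gpx4 and Prdx1 were also well above the median ratio of 1.25 of all genes under 1 kb. The cause was not tested. In Eos replicate 3 Prdx1 was at 3.37 and Gpx4 at 2.34 times the mean of the other Eos libraries, and Srxn1, with 6 counts, at 0.118 times.

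**Figure D4:**
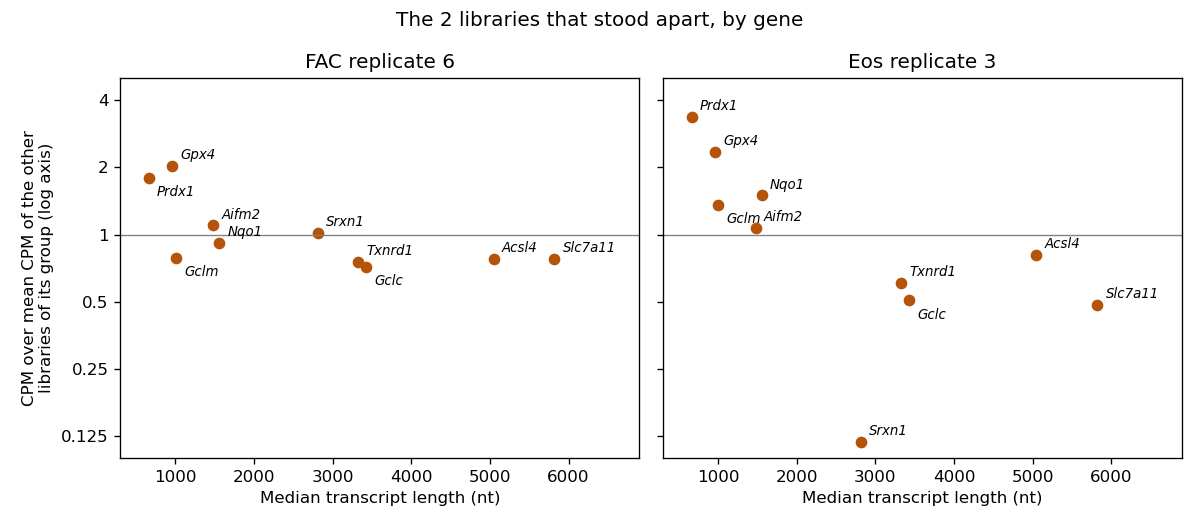
Level of each gene in FAC replicate 6 (left) and Eos replicate 3 (right) over the mean of the other libraries of its group (log axis) against its median transcript length in nt; points are genes and the line marks a ratio of 1. Prdx1 and Gpx4, the 2 shortest, were highest in both libraries, and the 5 genes with transcripts longer than that of Nqo1 lay below 1 in both, except Srxn1 in FAC replicate 6 at 1.02.

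In the libraries labelled bone marrow eosinophils, mixed by their markers, 3 of the 10 genes were called higher than in GMPs and 0 lower. Over all genes 19.8% were called (13% higher, 6.78% lower). The 3 genes were Nqo1, Gpx4 and Gclm. Without Eos replicate 3 there were 4, Aifm2 being added, against 36.6% of all genes. The median log2 fold change of the 10 was 0.65, and 0.40 without Eos replicate 3, with that of all genes at 0.01 and -0.01.

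Nqo1 differed most, with 3.85, 10.3 and 10.7 CPM in Eos replicates 1, 2 and 3, against 0.451, 0.353 and 1.12 CPM in GMP replicates 1, 2 and 3. It rested on 11 to 35 counts in the GMP libraries, was 12.8-fold higher in Eos (log2 fold change 3.68, SE 0.729, adjusted p 0.0159), and lost its call without Eos replicate 2 (adjusted p 0.0538), GMP replicate 1 (0.0942) or GMP replicate 2 (0.0803). Gpx4 had 316.3, 543.9 and 1008.4 CPM in Eos, against 191.4, 152.1 and 242.4 CPM in GMPs, and Gclm had 16.1, 9.87 and 17.6 CPM in Eos, against 4.66, 6.06 and 4.89 CPM in GMPs. For both the groups did not overlap, as for 48.3% of all genes. Gpx4 was higher by 1.67 (SE 0.427, adjusted p 0.0365) and by 1.13 (SE 0.264, adjusted p 0.012) without Eos replicate 3. Gclm was higher by 1.48 (SE 0.365, adjusted p 0.0327) and by 1.31 (SE 0.301, adjusted p 0.0111) without that library. Nqo1 was higher by 3.45 (SE 0.645, adjusted p 0.00463) without it. The Gpx4 call was lost without Eos replicate 2 (0.0786) or any 1 GMP library (0.0914 to 0.153), and the Gclm call without Eos replicate 1 (0.0622) or any 1 GMP library (0.102 to 0.159). With length and GC offsets the adjusted p was 0.0632 for Gpx4 and 0.0659 for Gclm. In the deposited TPM, which carry no TMM scaling, the same pair stood closer: Gpx4 was at 773.4 to 999.7 TPM in Eos and 581.5 to 787.4 TPM in GMPs, and Gclm at 5.33 to 12.6 TPM in Eos and 5.03 to 7.35 TPM in GMPs, with overlap in both. After TMM scaling of the TPM, limma gave 1.47 for Gpx4 (adjusted p 0.0496) and 1.24 for Gclm (adjusted p 0.0235).

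The other members were not called with all libraries. Aifm2 had 14.9, 12.7 and 14.8 CPM in Eos replicates 1, 2 and 3, against 8.90, 7.37 and 6.49 CPM in GMP replicates 1, 2 and 3 (0.90, SE 0.301, adjusted p 0.0794, and 0.86, adjusted p 0.0297, without Eos replicate 3). Gclc was lower in every Eos library, at 6.14, 4.92 and 2.81 CPM, against 6.82, 11.02 and 9.68 CPM in GMPs, and was not called (-0.99, SE 0.449, adjusted p 0.163). Prdx1 had 214.7, 383.6 and 1009.4 CPM in Eos, against 300.8, 252.4 and 341.1 CPM in GMPs, and its log2 fold change of 0.85 (adjusted p 0.292) became 0 without Eos replicate 3. In the deposited TPM the direction of Prdx1 turned, with 259.3 to 466.2 TPM in Eos, below the 473.1 to 541.0 TPM of the GMPs, and it was 0.52 (limma, adjusted p 0.486) with TMM-scaled TPM. Aifm2 overlapped in the deposited TPM, at 4.22 to 10.5 TPM in Eos and 6.85 to 7.98 TPM in GMPs, and was 0.88 (limma, adjusted p 0.0281) with TMM-scaled TPM. Slc7a11 was low in both, with 6.94, 9.95 and 4.10 CPM in Eos and 4.84, 4.65 and 5.75 CPM in GMPs (0.46, adjusted p 0.505). Txnrd1 (-0.57, adjusted p 0.172), Srxn1 (-0.59, adjusted p 0.656) and Acsl4 (-0.02, adjusted p 0.97) had overlapping groups, with 34.8 to 61.2, 0.337 to 4.03 and 37.3 to 54.0 CPM in Eos and 60.7 to 90.4, 2.80 to 3.26 and 38.7 to 50.5 CPM in GMPs. Without Eos replicate 3 the log2 fold change was -0.37 for Txnrd1, -0.10 for Srxn1, 0.07 for Acsl4, 0.73 for Slc7a11 and -0.73 for Gclc. None of these was called.

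**Figure D5:**
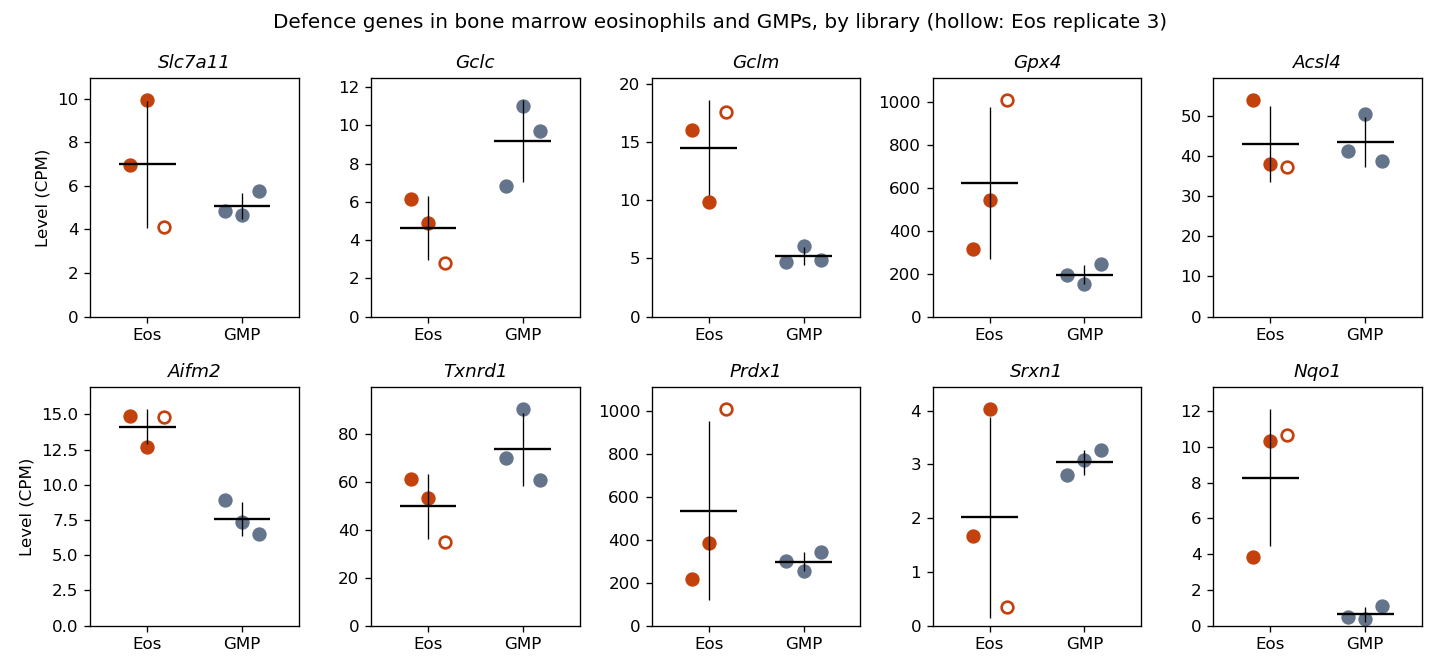
Level of each gene in CPM (linear axis from 0, one scale per panel) in Eos and GMP libraries; points are libraries, the hollow point is Eos replicate 3, horizontal bars are means and vertical bars 1 SD. Nqo1, Gpx4, Gclm and Aifm2 have all Eos libraries above all GMP libraries, and for Gpx4 and Prdx1 the highest value, 1008.4 and 1009.4 CPM, is that of Eos replicate 3.

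Over all genes tested 13% were called higher and 6.78% lower in Eos. Without Eos replicate 3 these were 2545 and 2078 of 12648 genes. Among the further genes 8 of 20 for glutathione rose in Eos and 0 fell (9 and 0 without Eos replicate 3), led by Chac1 (3.75), Mgst2 (3.23) and Mgst1 (2.35). Of 13 thioredoxin genes 5 rose and 2 fell (7 and 2), led by Txnip (2.82), Prdx5 (2.60) and Msrb1 (2.04). Of 19 NRF2 genes 9 rose and 0 fell (11 and 0), led by Hmox1 (6.15), Ephx1 (4.69) and Osgin1 (4.41), and of 21 of ferroptosis lipids 7 rose and 0 fell (9 and 3), led by Alox15 (8.46), Scd1 (7.55) and the lipoxygenase Alox5 (5.20). At an unadjusted p under 0.05 in the same edgeR fit 0 glutathione genes, 0 NRF2 genes and 2 of ferroptosis lipids were lower, and DESeq2 called the same numbers. Of the 10 genes themselves 0 were lower by either. Markers of other cells stood beside these values. Neutrophil markers summed to 33255 to 198068 CPM in Eos, the top value in replicate 3, against 77.4 to 109.8 CPM in GMPs, erythroid markers to 1103 to 2335 CPM in Eos against 13.3 to 17.9 CPM in GMPs and macrophage markers to 1501 to 2659 CPM in Eos against 573.3 to 600.9 CPM in GMPs. Progenitor markers summed to 36596 to 62260.4 CPM in Eos and 52372 to 62323 CPM in GMPs, with 1 of 8 genes higher in Eos, Elane (1.01), and 3 lower, Irf8 (-3.65), Flt3 (-3.37) and Cd34 (-1.76). Markers of mast cells and basophils summed to 1326.9 to 2569 CPM in Eos and 125.5 to 353.7 CPM in GMPs, with 5 of 5 tested genes higher. Marco of the macrophage list was at 0 in every GMP library. The part of such cells in the rises of Nqo1, Gpx4 and Gclm was not tested.

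Set against each other per length, the order of the levels depended on the length used. In CPM per kb of median transcript length, Prdx1 and Gpx4 were the 2 most abundant of the 10 in FAC (492 and 298 CPM per kb), DFO (346 and 207), CON (361 and 217), Eos (811 and 650.0) and GMPs (451 and 204). In the deposited TPM the same pair led in these groups with Gpx4 first: Gpx4 and Prdx1 averaged 690.9 and 367.4 TPM in FAC, 617.7 and 328.4 TPM in DFO, 609.7 and 324.3 TPM in CON, 900.5 and 357.5 TPM in Eos and 674.7 and 505.6 TPM in GMPs. Which of them was the higher is therefore not settled. In resting eosinophils Gpx4 led on both scales, with 278 CPM per kb and 332.0 FPKM, and Slc7a11 was at 8.82 CPM per kb and 5.71 to 6.33 FPKM. In T2 Slc7a11 was first in CPM per kb (261), before Gclm (232), with Gpx4 in place 5 (148). In the deposited FPKM of T2, Txnrd1 was first (188.1 FPKM, range 181.7 to 191.5), before Slc7a11 (166.6, range 137.1 to 186.3), Gpx4 (151.0, range 140.3 to 165.4) and Gclm (147.6, range 138.4 to 155.1), each overlapping its neighbour. The lowest gene was the same on both scales in T2 and FAC (Aifm2), in DFO (Nqo1) and in GMPs (Nqo1). It differed at rest, with Gclc in CPM per kb and Slc7a11 in FPKM, in CON, with Nqo1 in CPM per kb and Aifm2 in TPM, and in Eos, with Srxn1 in CPM per kb and Slc7a11 in TPM.

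Over the 7 groups, with log2(CPM + 1) centred within each table, the genes most like Slc7a11 among 10282 tested in all tables were Etv5, Pim2 and Egr2, at a root mean square difference of 0.269, 0.277 and 0.304. Those most like Txnrd1 were P4ha1 (0.0483), Srxn1 (0.0877) and Bysl (0.0917), so that another of the 10 genes was among its 3 nearest. Gpx4 was nearest to Rpl39 (0.0491), Rit1 (0.0575) and Bloc1s1 (0.064). For Slc7a11 the group means, as log2 differences from the table's centre, were 2.43 in T2 and -2.43 at rest, 0.71 in FAC, -0.79 in DFO and 0.09 in CON, and 0.17 in Eos and -0.17 in GMPs. These likenesses describe group means and carry no test.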

How the data were processed

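Libraries of oligo(dT)-enriched mRNA were sequenced, per the labels' protocols. The submitters' processing notes name fastp 0.18.0, Bowtie2 2.2.8, HISAT2, StringTie 1.3.1, RSEM and mm10, without saying which made which value. The authors made and deposited an expected count per gene, which need not be whole, and TPM for the tables of Eos and GMPs and of cultured eosinophils, and read counts and FPKM for the T2 table, per the file headers. The authors' FPKM for the other tables were also deposited and were not used here. Expected counts were rounded. In each table genes were filtered with filterByExpr, scaled by TMM and tested with the quasi-likelihood F test of edgeR 4.0.16 (R 4.3.3), with Benjamini-Hochberg adjustment over all genes tested. The cultured arms were fitted together. SEs are the log2 fold change over the root of F. Total counts of 16073573 to 28992674 set the counting precision, and genes with few counts are the least certain. DESeq2 1.42.0, limma 3.58.1 on TMM-scaled TPM or FPKM, other scalings, no filter, length and GC offsets, and each library left out served as alternatives. The scripts were tested on simulated data. The 10 genes, the pathway lists and the marker lists were chosen with earlier results of these data known. Beyond the 10, up to 3 called genes of each pathway list, those with the largest change, were named in each comparison, and Slc3a2 in T2 was added. Gene positions are from GENCODE M21 and promoters from RefSeq (GRCm38.p6). A further marker list is not reported here.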

Additional observations from a re-analysis of the deposited data

Results flagged for a closer look

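In the group of 4 FAC libraries, the 10 genes and the genes named beside them were searched for 1 library far from the rest by Dixon's test, which chance passes in about 1 in 20 groups. Of 45 genes searched 3 passed. Prdx1 was at 487.9 CPM in FAC replicate 6, with the next library at 285.1 CPM. Cat was lowest in the same library, at 194.9 CPM, with the next at 221.0 CPM. Gch1 was lowest in FAC replicate 5, at 4.09 CPM, with the next at 4.97 CPM.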

How the results depend on the processing

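For T2 against resting cells all alternatives kept the direction and call of the 10 genes. Elsewhere, small differences changed sign. For Acsl4 in Eos against GMPs (-0.02), the log2 fold change was 0.33 with length and GC offsets, 0.58 with offsets and without Eos replicate 3, and, with 1 library left out, -0.25 to 0.09, above 0 without Eos replicates 2 or 3 (0.07 each) or GMP replicate 2. For Prdx1 there (0.85) it was 0 to 1.17 with 1 library left out, lowest without Eos replicate 3, and -0.14 with offsets and without that library. In DFO against CON, Prdx1 (-0.06) was 0.02 with offsets, with or without FAC replicate 6, and Gclm (0.03) was -0.02 without CON replicate 1 and 0.08 without CON replicate 2. In FAC against CON, Gclc (-0.02) was 0 with RLE factors and with DESeq2, 0.10 with offsets, 0.15 with offsets and without FAC replicate 6, and -0.10 to 0.10 with 1 library left out, above 0 without CON replicate 2 (0.07), FAC replicate 5 (0.01) or FAC replicate 6 (0.10). Acsl4 there (-0.04) was 0.21 with offsets, with or without FAC replicate 6, and -0.09 to 0.05 with 1 library left out, above 0 without that library (0.05) or CON replicate 1 (0.02). Gclc in FAC against DFO (-0.18) was 0.02 with offsets and without FAC replicate 6. The cause was not tested.

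Of the 10 genes, 3 were called in Eos against GMPs, but 1 with offsets and 5 with offsets and without Eos replicate 3. In DFO against CON 1 was called, but 3 with offsets, with or without FAC replicate 6, and 5 with these arms fitted alone. In FAC against CON 3 were called, but 5 with offsets and 7 without FAC replicate 6 as well. Over all genes, Eos against GMPs had 2413 calls, 3867 by DESeq2, 1419 with the replicate block and 4571 with offsets and without Eos replicate 3. DFO against CON had 1460, 2446 with offsets, 5982 with these arms alone and 5220 with offsets and without FAC replicate 6. FAC against CON had 761 (222 higher, 539 lower), 1316 by DESeq2 (554 higher, 762 lower), 1231 with offsets (512 higher, 719 lower), 116 with these arms alone and 3041 with offsets and without FAC replicate 6.

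With 1 library left out, calls over all genes ran from 747 to 4623 in Eos against GMPs, 8300 to 8520 in T2 against resting, 217 to 4899 in DFO against CON, 76 to 2728 in FAC against CON and 4250 to 7855 in FAC against DFO. Among the 10 genes they ran from 0 to 4 in Eos against GMPs, 0 to 4 in DFO against CON, 1 to 6 in FAC against CON and 4 to 9 in FAC against DFO, and were 10 throughout in T2 against resting. Where 1 CON library is left out, the other is assumed to vary like the other groups.

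No pairing by replicate number was seen: same-numbered deviations correlated at 0.012, 0.013 and 0.104 in Eos and GMPs and at -0.006, -0.021 and 0.036 in T2 and resting cells. With so few libraries, and Eos replicate 3 far from its group, these values cannot exclude a shared origin. With the replicate block 2 of the 10 genes were called in Eos against GMPs, Gclm having an adjusted p of 0.114, and all 10 in T2 against resting. The cultured arms share no replicate numbers, so no replicate block could be fitted there. Offsets without a library, and TMM-scaled TPM or FPKM, were chosen after seeing the data. Total counts limit Nqo1, Srxn1 and Slc7a11 most in the Eos and GMP table.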
